A study of Gallus gallus with 4 samples.

Results

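GABAergic amacrine cells of the chick retina were examined in 4 droplet libraries of single retinal cells. A barcode was counted as a GABAergic amacrine cell, called a member below, when it held at least 2 UMIs of GAD1 plus GAD2, at least 1 UMI of TFAP2A or TFAP2B, and 0 UMIs of both SLC6A9 and ONECUT1. A UMI is a tag that marks an RNA molecule, so that each molecule is counted once. Barcodes had to hold at least 200 genes and at most 5% of their UMIs in the 13 mitochondrially encoded genes, which kept 36389 of 41286 barcodes. The rule found 2792 members among them: 619 in the clodronate+NMDA library, 374 in the NMDA library, 997 in the clodronate+saline library and 802 in the saline library. The measured values of the 6 rule genes chose these barcodes, so the levels of those genes are a description and are not tested.

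The retinas came from wild-type leghorn chicks, and the study asked how loss of microglia alters the response of retinal cells to damage. Eyes received clodronate liposomes, which kill phagocytic microglia, or saline at postnatal day 6, and then NMDA or saline at postnatal day 10, and retinas were collected 24 hours later. NMDA is a glutamate receptor agonist whose overdose kills inner retinal neurons, amacrine cells among them. The clodronate+NMDA library received both agents, the NMDA library only NMDA, the clodronate+saline library only clodronate, and the saline library neither. Each condition was a single library, and how many animals were pooled in it was not stated in the sources used here. No difference between conditions could therefore be checked against replicates. Intervals given below are 95% exact intervals that cover counting error only, and no p-value is given. The 2 values in parentheses after a log2 ratio are the bounds of its interval.

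Amacrine cells are the interneurons of the inner retina, and most use GABA or glycine as their inhibitory transmitter. GABAergic amacrine cells make GABA from glutamate with the glutamate decarboxylases GAD1 and GAD2, and load it into vesicles with SLC32A1. The AP-2 transcription factors TFAP2A and TFAP2B are shared by amacrine and horizontal cells, SLC6A9 is the plasma membrane glycine transporter of glycinergic amacrine cells, and ONECUT1 is a horizontal cell transcription factor. Many GABAergic amacrine cells also release a second transmitter, such as acetylcholine in starburst cells or a neuropeptide in wide-field cells.

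The libraries differed in depth, which bears on a rule that counts UMIs. The median UMI count of kept barcodes was 1814 in the clodronate+NMDA library, 1530 in the NMDA library, 1595 in the clodronate+saline library and 1347 in the saline library. Members were deeper, with medians of 3569, 3561, 3426 and 2742.5 UMIs in the same order. Their UMIs summed to 2472534, 1387120, 3696867 and 2323633. Many barcodes lay close to the threshold on GAD. In the clodronate+NMDA, NMDA, clodronate+saline and saline libraries, 130, 64, 163 and 144 members held exactly 2 GAD UMIs, and 115, 133, 234 and 231 barcodes that met every other condition held exactly 1 and stayed out. Between 101 and 214 barcodes were shared by a pair of libraries, and at most 1 shared barcode was a member in both.

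The label was checked against other cell types. SLC6A9 was at 0 by the rule, and SLC6A5, another plasma membrane glycine transporter of glycinergic neurons, was also at 0 in all 4 libraries, although the rule did not use it. POU4F1, a ganglion cell transcription factor, was likewise at 0 in members of every library. Other ganglion cell markers were found in members. Of the 7, 6 had UMIs in the clodronate+NMDA library, 4 in the NMDA library and 5 in each undamaged library. How often SLC6A5 and POU4F1 were detected in other barcodes is not given here, so their 0 counts were no test of the label. Markers of other types were present below their level in the remaining barcodes. The 6 Müller glia markers summed to 490 CPM (UMIs of a gene per 1000000 UMIs summed over the members of a library) in clodronate+NMDA members, 663 CPM in NMDA members, 461 CPM in clodronate+saline members and 1176 CPM in saline members, against 3249, 5747, 4209 and 7465 CPM in the other kept barcodes. The 6 bipolar markers were the least reduced, at 650 CPM in clodronate+NMDA members, 620 CPM in NMDA members, 957 CPM in clodronate+saline members and 1084 CPM in saline members, against 1141, 1373, 1632 and 1860 CPM in the other kept barcodes, and 21.3%, 24.9%, 25.4% and 27.6% of members held at least 2 of these genes. The 8 cone markers found in the files summed to 265, 401, 270.5 and 490.2 CPM in members, and the 5 rod markers to 53.4, 192, 220.5 and 331 CPM. The 7 ganglion cell markers were highest in clodronate+NMDA members, at 512 CPM, against 289, 344 and 312 CPM in the other libraries. Microglial markers (C1QA, C1QB, C1QC, CSF1R and CCL4) were near 0 in all members, with sums of 3, 11, 1 and 20 UMIs. Members with at least 2 marker genes of each of at least 2 other types made up 14.2% of clodronate+NMDA members, 33.2% of NMDA members, 17% of clodronate+saline members and 27.9% of saline members. No doublet caller was run, and the part of doublets and free RNA in the results was not tested beyond the values given here and in the closing section. Cones, which should lack GAD, held at least 1 GAD UMI in 4.12%, 9.87%, 7% and 13.1% of barcodes at median depths of 1749, 1667.5, 1680 and 1355 UMIs.

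GABAergic amacrine cells were a smaller share of the NMDA library than of any other library. They made up 8.92% (interval 8.26% to 9.61%) of kept barcodes in the clodronate+NMDA library, 3.91% (3.53% to 4.32%) in the NMDA library, 10.1% (9.48% to 10.7%) in the clodronate+saline library and 8.04% (7.51% to 8.59%) in the saline library. The clodronate+NMDA interval overlapped those of the clodronate+saline and saline libraries, and no other intervals overlapped. The NMDA share was 0.487 times the saline share, and the clodronate+NMDA share was 0.886 times the clodronate+saline share. After every barcode was thinned to 1000 UMIs and shallower barcodes were left out, the shares were 4.04%, 2.28%, 6.25% and 5.57%, and the same ratios were 0.409 and 0.646. At equal depth the clodronate+NMDA share was thus below the saline share, whereas as found it was above it. The ratio of the clodronate+NMDA to the NMDA share was 2.28 as found and 1.77 after thinning. Counted per 100 bipolar barcodes, members numbered 28.4 in the clodronate+NMDA library, 13.2 in the NMDA library, 32.5 in the clodronate+saline library and 25.7 in the saline library. Per 100 cone barcodes they numbered 98.1, 41.5, 184 and 148 in the same order. The clodronate+NMDA count was thus above the saline count per bipolar barcode and below it per cone barcode. Barcodes with at least 2 GAD UMIs but 0 UMIs of TFAP2A and TFAP2B stayed out. They numbered 131, 230, 186 and 250 in the clodronate+NMDA, NMDA, clodronate+saline and saline libraries. A fall in cell number, a gain of other cells in the same library and a loss of rule gene RNA that keeps cells outside the rule cannot be told apart from shares.

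**Figure D1:**
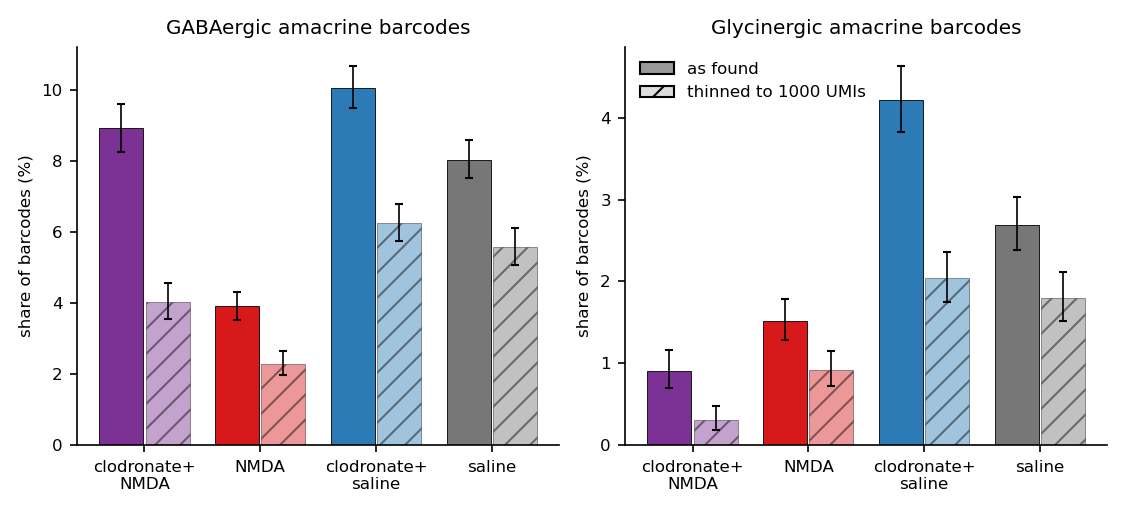
Share of kept barcodes (%, vertical axis) that were GABAergic amacrine (left) or glycinergic amacrine (right) in the clodronate+NMDA, NMDA, clodronate+saline and saline libraries, as found (solid bars) and after thinning to 1000 UMIs (hatched bars). Error bars are 95% exact binomial intervals for counting error only. The GABAergic share was lowest in the NMDA library (3.91%), and the glycinergic share was lowest in the clodronate+NMDA library (0.908%).

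The glycinergic amacrine barcodes, found with at least 2 UMIs of SLC6A9, at least 1 UMI of TFAP2A or TFAP2B and 0 UMIs of GAD1, GAD2 and ONECUT1, showed another order. Their share was 0.908% in the clodronate+NMDA library, 1.52% in the NMDA library, 4.22% in the clodronate+saline library and 2.70% in the saline library. The clodronate+NMDA share was 0.886 times the clodronate+saline share for GABAergic barcodes, against 0.215 times for glycinergic barcodes. After thinning these ratios were 0.646 for GABAergic barcodes and 0.151 for glycinergic barcodes. Barcodes with at least 2 GAD UMIs, at least 1 UMI of TFAP2A or TFAP2B and any SLC6A9 were counted in neither group. They numbered 286, 263, 362 and 197 in the clodronate+NMDA, NMDA, clodronate+saline and saline libraries. Glycinergic barcodes numbered only 63 in the clodronate+NMDA library, so the contrast depends on where such mixed barcodes are placed, which was not tested. Without clodronate the ratios of the NMDA to the saline share lay closer together, at 0.487 for GABAergic barcodes and 0.562 for glycinergic barcodes. Bipolar cells kept a like share in all libraries, at 31.4%, 29.7%, 31.0% and 31.3%. Cones did not, at 9.09%, 9.43%, 5.48% and 5.42% in the same order.

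Genes that set members apart from all other kept barcodes were described next. Since the barcodes were picked by their own counts, these ratios carry no test. Besides GAD2, GAD1 and TFAP2A, the 20 genes with the highest lowest-library ratio included NR4A2, an orphan nuclear receptor, RASL10A, a Ras-like GTPase, the complement-related synaptic proteins C1QL1 and C1QL2, the presynaptic trafficking genes SYT6 and RAB3B, the secreted synapse organiser CBLN1, the growth factor PDGFB, the GDNF receptor GFRA1, the third AP-2 factor TFAP2C and the neuropeptides VIP and NPY. NR4A2 took the second place although the rule did not use it. It had 77.7 CPM in clodronate+NMDA members, 87.2 CPM in NMDA members, 96 CPM in clodronate+saline members and 95.1 CPM in saline members, and its log2 ratio over the other barcodes was between 2.79 and 2.93 in the 4 libraries. RASL10A took the fifth place, with log2 ratios of 2.58 to 3.11. VIP varied most among the 20, with log2 ratios of 2.18 in the clodronate+saline library and 3.64 in the saline library.

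**Figure D2:**
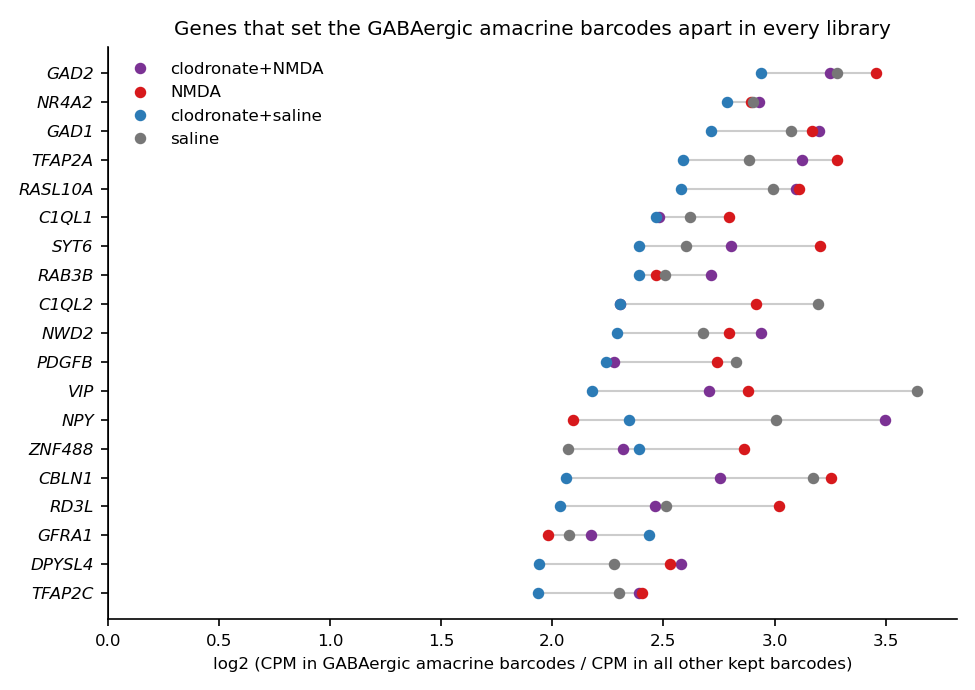
Log2 ratio of CPM in GABAergic amacrine barcodes over CPM in all other kept barcodes (horizontal axis) for 19 of the 20 genes with the highest lowest-library value, 1 point per library. GAD2, the leading gene, lay between 2.94 and 3.46, and all 19 genes plotted were higher in members in each library.

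The decarboxylase genes are described next, without a test, since their summed UMIs chose the members. A barcode low in GAD1 needed UMIs of GAD2 to pass, so the levels of the pair are tied by the rule. GAD1 (chr7:17821412-17875521, positions here and below from the RefSeq annotation of GRCg7b) had 977 CPM in clodronate+NMDA members, 1017 CPM in NMDA members, 1435 CPM in clodronate+saline members and 1777 CPM in saline members. GAD2 (chr2:16175698-16208557) had 496 CPM in clodronate+NMDA members, 582 CPM in NMDA members, 493 CPM in clodronate+saline members and 427 CPM in saline members. GAD1 was thus lower in both NMDA-treated libraries than in their counterparts, with log2 ratios of -0.81 (-0.89, -0.72) for NMDA over saline and -0.56 (-0.63, -0.49) for clodronate+NMDA over clodronate+saline. GAD2 was higher in NMDA members, at 0.45 (0.31, 0.58), and level with clodronate, at 0.01 (-0.10, 0.11). Once members were thinned to 1500 UMIs, which kept 597, 321, 944 and 668 of them, those with GAD2 but no GAD1 made up 13.4% of clodronate+NMDA members, 14.0% of NMDA members, 8.69% of clodronate+saline members and 6.14% of saline members. Those with GAD1 but no GAD2 made up 45.9%, 38.3%, 48.7% and 52.5%. These levels, ratios and shares rest on genes of the rule and describe the members found.

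The rest of the GABA machinery stayed within 2-fold in most cases. SLC32A1 (chr20:4011429-4017997), the vesicular inhibitory amino acid transporter, had 366 CPM in clodronate+NMDA members, 417 CPM in NMDA members, 434 CPM in clodronate+saline members and 366 CPM in saline members, so its 4 values lay close together. ABAT, the transaminase that breaks GABA down, had 46.1 CPM in NMDA members, against 81.8 CPM in saline members, and 47.3 CPM in clodronate+NMDA members, against 83.3 CPM in clodronate+saline members. Its log2 ratios were -0.83 (-1.26, -0.41) and -0.82 (-1.14, -0.50), whereas bipolar barcodes of the same libraries gave 0.27 and 0.13. SLC6A11, the GAT-3 transporter, was lowest in NMDA members, at 18 CPM, against 44.8 CPM in saline members. Of the 12 genes of GABA synthesis, packaging and uptake with at least 50 UMIs over the NMDA and saline libraries, 0 were at least 2-fold higher and 2 at least 2-fold lower in NMDA members, where 4.31% and 4.39% of all 8198 genes tested were (8.7% in either direction). The 12 include the rule genes GAD1 and GAD2, both within 2-fold, so the count is partly set by the rule. The 2 lower genes were SLC6A11 and SLC1A3, and SLC1A3 is also a Müller glia marker here.

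Cotransmitter genes marked small subsets of members. A barcode was called a carrier of such a gene at 2 UMIs or more. Starburst amacrine cells, the cholinergic type, make acetylcholine with CHAT and load it with the vesicular transporter SLC18A3. CHAT was carried by 14 of 619 clodronate+NMDA members (2.26%), 6 of 374 NMDA members (1.60%), 2 of 997 clodronate+saline members (0.201%) and 1 of 802 saline members (0.125%). SLC18A3 was carried by 4.68%, 3.21%, 1.30% and 0.499% of members. Of the 23 CHAT carriers, 20 also carried SLC18A3, against 38 of the 2769 other members. Of the 58 SLC18A3 carriers, in turn, 20 (34.5%) carried CHAT. All 23 CHAT carriers held TFAP2B, a gene of the rule, so this describes the members found. Members with TFAP2A but no TFAP2B made up 47.2%, 40.6%, 46.0% and 39.0% of clodronate+NMDA, NMDA, clodronate+saline and saline members. Carriers of CHAT and carriers of SLC18A3 were more frequent in the NMDA-treated libraries. For CHAT the intervals of the NMDA share (0.591% to 3.46%) and the saline share (0.003% to 0.693%) overlapped. Those of the clodronate+NMDA and clodronate+saline shares did not, and for SLC18A3 neither pair overlapped. In summed CPM, CHAT had 19.5 CPM in NMDA members, against 2.58 CPM in saline members, and 21.4 CPM in clodronate+NMDA members, against 2.43 CPM in clodronate+saline members, with log2 ratios of 2.91 (1.61, 4.48) and 3.14 (2.11, 4.34), the NMDA and saline libraries holding only 27 and 6 UMIs. SLC18A3 had log2 ratios of 1.96 (1.30, 2.65) and 1.85 (1.41, 2.30). In bipolar barcodes the SLC18A3 ratios ran the other way, at -1.96 and -2.23. After thinning to 1500 UMIs, SLC18A3 was found in 5.03% of clodronate+NMDA members, 4.05% of NMDA members, 1.69% of clodronate+saline members and 1.05% of saline members, so the order held at equal depth. In cones the thinned shares were 0%, 0%, 0.331% and 1.29%. Only 2 of the 23 CHAT carriers held 5 UMIs or more, and more carriers and more RNA per carrier cannot be told apart at these counts.

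**Figure D3:**
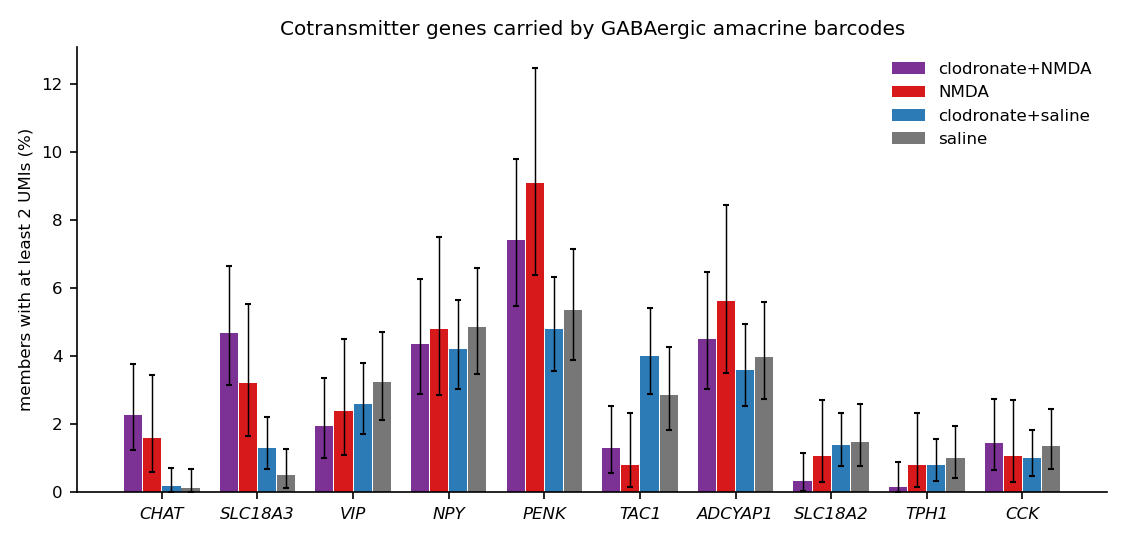
Share of GABAergic amacrine members with at least 2 UMIs (%, vertical axis) of 10 cotransmitter genes in the clodronate+NMDA, NMDA, clodronate+saline and saline libraries, with 95% exact binomial intervals for counting error only. CHAT and SLC18A3 were carried most often in the clodronate+NMDA and NMDA libraries, and TAC1 in the clodronate+saline (4.01%) and saline (2.87%) libraries.

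The summed UMIs of the monoamine genes TPH1 and SLC18A2 went in the opposite direction. TPH1, tryptophan hydroxylase of serotonin synthesis, had 5 UMIs in clodronate+NMDA members, 10 in NMDA members, 108 in clodronate+saline members and 90 in saline members. SLC18A2, the vesicular monoamine transporter, had 12 UMIs in clodronate+NMDA members, 16 in NMDA members, 71 in clodronate+saline members and 69 in saline members. TPH1 was lower in both NMDA-treated libraries, with log2 ratios of -2.43 (-3.53, -1.48) for NMDA over saline and -3.85 (-5.50, -2.59) for clodronate+NMDA over clodronate+saline, and SLC18A2 gave -1.36 (-2.25, -0.56) and -1.98 (-3.0, -1.09). TPH1 was carried by 0.162% of clodronate+NMDA members, 0.802% of NMDA members, 0.802% of clodronate+saline members and 0.998% of saline members. SLC18A2 was carried by 0.323%, 1.07%, 1.404% and 1.496% in the same order. For both genes the intervals of the NMDA-treated and undamaged shares overlapped, with and without clodronate. The TPH1 UMIs came from 4, 4, 22 and 11 barcodes. Of the 20 TPH1 carriers over all libraries, 15 also carried SLC18A2. All 20 held TFAP2B, which as a gene of the rule describes the members found. TH, the rate-limiting enzyme of dopamine synthesis, had 227 UMIs in clodronate+NMDA members, 1 in NMDA members, 9 in clodronate+saline members and 95 in saline members, but 225 of the 227 UMIs in the clodronate+NMDA library came from a single barcode, as did 63 of the 95 in the saline library, so its ratios rest on single barcodes.

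Neuropeptide genes were carried by small shares of members. NPY, neuropeptide Y, was carried by 4.36%, 4.81%, 4.21% and 4.86% of members in the clodronate+NMDA, NMDA, clodronate+saline and saline libraries. VIP, vasoactive intestinal peptide, was carried by 1.94%, 2.41%, 2.61% and 3.24%. The intervals of the 4 libraries overlapped for both genes. The summed level of VIP was not as steady, at 154 CPM in clodronate+NMDA members, 291 CPM in NMDA members, 93.6 CPM in clodronate+saline members and 382 CPM in saline members, which came from few barcodes, 17, 17, 38 and 40 of them with at least 1 UMI. PENK, proenkephalin, was carried by 7.43%, 9.09%, 4.81% and 5.36%, and ADCYAP1, the PACAP precursor, by 4.52%, 5.61%, 3.61% and 3.99%. TAC1, the substance P precursor, was carried by 1.29% of clodronate+NMDA members, 0.802% of NMDA members, 4.01% of clodronate+saline members and 2.87% of saline members. The intervals of the clodronate+NMDA and clodronate+saline shares did not overlap, and those of the NMDA and saline shares did. Its level was 53.3 CPM in NMDA members, against 173 CPM in saline members, and 59.9 CPM in clodronate+NMDA members, against 259.7 CPM in clodronate+saline members, with log2 ratios of -1.70 (-2.08, -1.34) and -2.12 (-2.38, -1.87). Of the 74 TAC1 carriers 13 (17.6%) also carried NPY, against 4.16% of other members. TFAP2B, a gene of the rule, was held by 36.5% of TAC1 carriers and 90.4% of VIP carriers, which describes the members found.

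Rarer peptides rested on a handful of barcodes each. GCG, proglucagon, was found in 4, 6, 15 and 5 members with 295 UMIs in clodronate+NMDA members, 944 in NMDA members, 645 in clodronate+saline members and 77 in saline members. CRH, corticotropin-releasing hormone, had 4 UMIs in clodronate+NMDA members, 129 in NMDA members, 42 in clodronate+saline members and 62 in saline members, and its binding protein CRHBP had 1 UMI in clodronate+NMDA members and 172, 15 and 7 UMIs in NMDA, clodronate+saline and saline members, the NMDA value coming from 3 barcodes. CARTPT, the CART peptide precursor, had nearly all its UMIs in the NMDA-treated libraries, with 186 UMIs in clodronate+NMDA members, 211 in NMDA members, 1 in clodronate+saline members and 0 in saline members. Its level was at least 118-fold higher in NMDA members than in saline members, computed against a floor of 3 counts in the saline library. The carriers numbered 4 in the clodronate+NMDA library and 9 in the NMDA library, so 13 barcodes held the difference. SST7 and NTS, the neurotensin precursor, had lower levels in members (635 and 93 CPM in the saline library) than in glycinergic barcodes (6049.9 and 1281 CPM), and the part of free RNA or doublets in them was not tested.

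Many genes of members differed by 2-fold or more between NMDA-treated and undamaged libraries, and the ratios with and without clodronate ran alongside each other. A gene was tested when it had at least 50 UMIs over both libraries of a comparison, and it was called when its CPM differed by at least 2-fold. For NMDA over saline, 353 of 8198 genes (4.31%) were called higher and 360 (4.39%) lower, 8.7% in either direction. With TMM scaling, which sets libraries level over most of their genes, the NMDA over saline split was 273 higher and 443 lower. For clodronate+NMDA over clodronate+saline, 344 of 9620 (3.58%) were called higher and 358 (3.72%) lower, 7.3% in either direction. These comparisons share no library. Over 8151 genes tested in both, 150 were higher in both, which is 43.0% of the 349 called without clodronate and 57.5% of the 261 called with it, and 120 were lower in both, 34.4% of 349 and 48.8% of 246. The log2 ratios had a Pearson r of 0.65 over 8149 genes, which are not independent replicates. Some of these genes also passed 2-fold in bipolar barcodes of the same libraries. Of 340 genes called higher in NMDA members and tested in bipolar barcodes, 74 (21.8%) were also at least 2-fold higher there, and of 316 called lower 74 (23.4%) were. Over all genes tested in both, 1.96% were at least 2-fold higher and 2.23% at least 2-fold lower in bipolar barcodes. With clodronate 67 of 305 and 74 of 301 were shared in this way, where 1.58% and 2.21% of all genes were past 2-fold in bipolar barcodes. In cones 87 of 271 genes called higher in NMDA members (32.1%) and 50 of 213 called lower (23.5%) were shared, where 4.49% and 2.34% of all genes were past 2-fold.

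**Figure D4:**
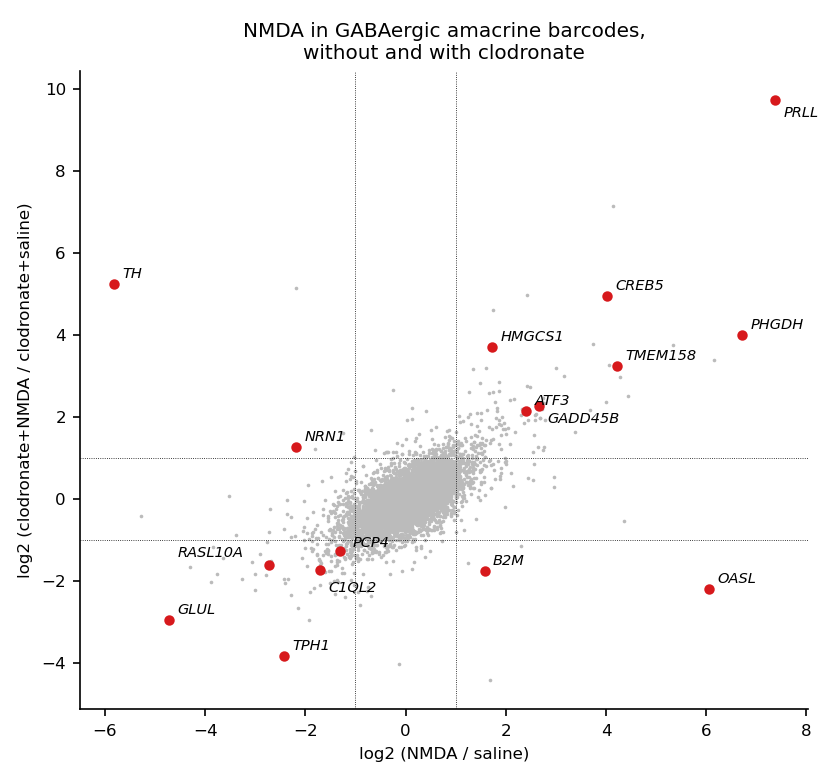
Log2 ratio of NMDA over saline (horizontal axis) against log2 ratio of clodronate+NMDA over clodronate+saline (vertical axis) in GABAergic amacrine members, 1 point per gene with at least 50 UMIs in each pair of libraries. Dotted lines mark 2-fold. Genes lay along the diagonal (r of 0.65), with PRLL highest on both axes and OASL, B2M, NRN1 and TH in the off-diagonal corners.

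Some genes with the highest ratios after NMDA were also higher in bipolar barcodes. PRLL (chr1:30670357-30674227), annotated as prolactin-like, had 4123 CPM in clodronate+NMDA members, 4429 CPM in NMDA members, 4.87 CPM in clodronate+saline members and 26.7 CPM in saline members. It was found in 180, 132, 16 and 5 members, and the log2 ratios were 7.38 (7.01, 7.76) without clodronate and 9.73 (9.06, 10.48) with it. Bipolar barcodes gave 6.88 and 6.71, which is close to the ratio in members without clodronate and below it with clodronate. GLRX, the thiol reductase glutaredoxin, had 144 UMIs in clodronate+NMDA members, 142 in NMDA members, 14 in clodronate+saline members and 0 in saline members, at least 79.3-fold higher in NMDA than in saline members, and bipolar barcodes gave 3.58. EDA2R, a member of the TNF receptor family, had 69.9 CPM in NMDA members, against 1.72 CPM in saline members. It had 54.2 CPM in clodronate+NMDA members, against 4.06 CPM in clodronate+saline members. Its ratios in bipolar barcodes were also of similar size (5.61 and 3.98). FABP9 and S100A6, which were also high in cones and bipolar cells of the NMDA-treated libraries, gave 6.16 and 4.14 for NMDA over saline in members. FABP9 stands in the list of reactive Müller glia markers used here, and the part of free glial RNA in its level was not tested.

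Other genes were higher in members with little difference in bipolar barcodes, and glycinergic amacrine barcodes are not compared for them here. CREB5 (chr2:33134843-33385850), a transcription factor of the CREB and ATF family, had 76.4 CPM in NMDA members, against 4.73 CPM in saline members, and 125 CPM in clodronate+NMDA members, against 4.06 CPM in clodronate+saline members. Its log2 ratios were 4.01 (3.12, 5.06) and 4.94 (4.20, 5.80), against -0.26 and 0.09 in bipolar barcodes. It was found in 172 and 72 members of the NMDA-treated libraries and in 9 and 8 of the others, so many barcodes carried the difference. ATF3, a stress-induced factor of the same family, had 112 CPM in NMDA members, against 21.1 CPM in saline members, and 77.2 CPM in clodronate+NMDA members, against 17.6 CPM in clodronate+saline members, and its bipolar ratios were 0.23 and 0.12. GADD45B, a growth arrest and DNA damage response gene, had 660.4 CPM in NMDA members, against 104 CPM in saline members, and 527 CPM in clodronate+NMDA members, against 110.4 CPM in clodronate+saline members, with log2 ratios of 2.66 (2.46, 2.88) and 2.26 (2.10, 2.42) in members and 0.47 and 0.55 in bipolar barcodes. TMEM158, a membrane protein induced by Ras signalling, had log2 ratios of 4.23 (3.49, 5.07) and 3.23 (2.59, 3.93).

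Of 14 immediate early genes tested, 7 were higher and 1 lower in NMDA members (median log2 ratio 1.10, against 0.07 for all genes), and 9 of 15 were higher and 0 lower in clodronate+NMDA members. Among all genes tested, 4.31% were higher and 4.39% lower without clodronate, and 3.58% and 3.72% with it. MYC, a growth-promoting transcription factor, had 69.2 CPM in NMDA members, against 8.61 CPM in saline members, and 119 CPM in clodronate+NMDA members, against 13 CPM in clodronate+saline members, and KLF6, a zinc finger factor linked to axon regrowth, gave log2 ratios of 1.63 and 2.17. JUN gave 1.30 and 1.32, and DUSP1, a phosphatase that switches off MAP kinases, 1.92 and 1.99. The members that ran against the list were NR4A3, an activity-induced nuclear receptor, at -1.03, EGR1 at -0.68 and FOS at -0.39 for NMDA over saline, of which EGR1 reached 1.67 with clodronate. Among 14 genes of axon injury and regrowth, 4 were higher and 0 lower and 10 within 2-fold (median 0.34), and MARCKS, BASP1 and CRMP1 lay below 0 at -0.62, -0.43 and -0.48. The list was led by SOX11, a transcription factor of immature neurons, with 182 CPM in NMDA members, against 18.9 CPM in saline members, and 113 CPM in clodronate+NMDA members, against 30.0 CPM in clodronate+saline members.

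Of 32 stress and cell death genes tested, 7 were higher and 0 lower in NMDA members (median 0.32, against 0.07 for all genes), and 7 of 36 were higher and 0 lower in clodronate+NMDA members (median 0.31). Over all genes 4.31% and 3.58% were called higher in these comparisons. Some of this list belongs to the amino acid response, in which ATF4 drives genes of amino acid synthesis and transport. In a list of serine, proline and amino acid response genes, chosen after values had been seen, 9 of 12 were higher in NMDA members and 9 of 13 in clodronate+NMDA members. PHGDH, the first enzyme of serine synthesis, had 90.1 CPM in NMDA members, against 0.861 CPM in saline members, and 143 CPM in clodronate+NMDA members, against 8.93 CPM in clodronate+saline members. It was found in 164 and 62 members of the NMDA-treated libraries, against 28 and 2 of the others. PSAT1 and PSPH, the next enzymes of that pathway, gave 2.71 and 2.60 without clodronate and 2.18 and 2.06 with it, and bipolar barcodes gave 0.01 and 0.03 for PSPH. CHAC1, which degrades glutathione, had 50.5 CPM in NMDA members, against 2.58 CPM in saline members, and 46.5 CPM in clodronate+NMDA members, against 5.95 CPM in clodronate+saline members, and ASNS, asparagine synthetase, 137 CPM in NMDA members, against 21.5 CPM in saline members, and 125 CPM in clodronate+NMDA members, against 24.6 CPM in clodronate+saline members. ATF4 itself stayed below 2-fold, at 0.91 and 0.51.

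Cholesterol synthesis genes were higher after NMDA in both settings, by more with clodronate. The list was chosen after values had been seen. Of 20 genes tested, 13 were higher and 0 lower in NMDA members (median log2 ratio 1.29), and 19 were higher and 0 lower in clodronate+NMDA members (median 1.75). Across all genes 4.31% were higher without clodronate and 3.58% with it, with medians of 0.07 and -0.005. HMGCS1, the synthase that starts the mevalonate pathway, had 221 CPM in NMDA members, against 66.7 CPM in saline members, and 252 CPM in clodronate+NMDA members, against 19.5 CPM in clodronate+saline members. Its log2 ratios were 1.73 (1.44, 2.01) and 3.69 (3.34, 4.07), and it was lower in clodronate+saline than in saline members, at -1.78 (-2.20, -1.36). The NMDA-treated libraries had HMGCS1 levels close to each other, so the larger ratio with clodronate went with the lower level in clodronate+saline members. FDPS, farnesyl diphosphate synthase, had 453 CPM in NMDA members, against 188 CPM in saline members, and 627 CPM in clodronate+NMDA members, against 104 CPM in clodronate+saline members.

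Several genes that set members apart were lower after NMDA. RASL10A (chr18:4694144-4695434) had 52.6 CPM in NMDA members, against 348 CPM in saline members, and 108 CPM in clodronate+NMDA members, against 335 CPM in clodronate+saline members, with log2 ratios of -2.72 (-3.09, -2.38) and -1.63 (-1.82, -1.44) and similar ratios in bipolar barcodes (-2.22 and -2.05), where its level was far lower (12.5 CPM in the saline library). C1QL2 gave -1.71 and -1.75, and CBLN1 -1.21 and -0.96. The transcription factors NHLH2 and FOXP2, which mark amacrine subsets among the members, gave -1.33 and -1.60 without clodronate and -1.53 and -1.78 with it. NHLH2 was found in 104, 63, 292 and 193 members. Of 50 amacrine transcription factors and neuronal genes tested, 10 were lower and 2 higher in NMDA members, and 5 were lower and 4 higher in clodronate+NMDA members. Over all genes 4.39% were called lower and 4.31% higher without clodronate, and 3.72% and 3.58% with it. Fewer cells of a subset and less RNA in each cannot be told apart from the summed level of a gene.

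Of 11 calcium-binding protein genes tested, 4 were lower and 0 higher in NMDA members (median -0.91), and of 12 tested 4 were lower and 0 higher in clodronate+NMDA members (median -0.60). Across all genes 4.39% were lower without clodronate and 3.72% with it, with medians of 0.07 and -0.005. CALB2, calretinin, had 1576 CPM in NMDA members, against 3448 CPM in saline members, and 1922 CPM in clodronate+NMDA members, against 3514 CPM in clodronate+saline members, and PCP4, a small calmodulin regulator, 1183 CPM in NMDA members, against 2918 CPM in saline members, and 1195 CPM in clodronate+NMDA members, against 2909 CPM in clodronate+saline members. PCP4 gave -1.30 (-1.38, -1.22) and -1.28 (-1.34, -1.22), nearly the same value in both settings, against -0.71 and -1.17 in bipolar barcodes. CALB2 gave -1.13 and -0.87 in members and -1.56 and -1.02 in bipolar barcodes. Its level in the saline library was 3448 CPM in members, against 1051 CPM in bipolar barcodes.

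The vesicle protein SYP, synaptophysin, had 1109 CPM in NMDA members, against 2382 CPM in saline members, and 1026 CPM in clodronate+NMDA members, against 2532 CPM in clodronate+saline members, with log2 ratios of -1.10 (-1.19, -1.02) and -1.30 (-1.37, -1.24). SNCB, beta-synuclein, gave -1.08 (-1.15, -1.03) and -1.05 (-1.09, -1.0) in members and -0.23 and -0.34 in bipolar barcodes, and CPLX2, a complexin that clamps vesicle fusion, gave -1.38 and -1.13. Of 24 vesicle release genes tested, 5 were lower and 1 higher in NMDA members, and of 27 tested 4 were lower and 2 higher in clodronate+NMDA members, beside 4.39% lower and 4.31% higher, and 3.72% lower and 3.58% higher, over all genes. The 1 higher in NMDA members, VAMP2, gave -1.16 once members with more than 2500 genes were left out. GRIN1, the obligatory subunit of the NMDA receptor itself, had 182 CPM in NMDA members, against 382 CPM in saline members, and 166 CPM in clodronate+NMDA members, against 356 CPM in clodronate+saline members. Its log2 ratios were -1.07 (-1.27, -0.86) and -1.10 (-1.27, -0.94), against -0.48 and -0.34 in bipolar barcodes. GRIN2B, a subunit that binds glutamate, stayed within 2-fold at -0.32 and -0.07, and so did the AMPA receptor subunit GRIA4 at -0.14 and 0.01. Of 20 glutamate receptor genes tested, 6 were lower in NMDA members and 2 in clodronate+NMDA members, with 0 higher in either. The glycine receptor subunit GLRA1 gave -1.70 and -1.63, and the GABA-A subunit GABRE -1.23 and -1.41. HK2, a hexokinase of glycolysis, was lower at -1.07 and -1.28. Müller glia markers led the lower genes as well: GLUL, glutamine synthetase, gave -4.71 in members, -5.0 in bipolar barcodes and -4.12 in cones, so the ratio was of like size in all of these cell types.

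After clodronate without NMDA most genes of members stayed within 2-fold, and interferon-stimulated genes were higher. For clodronate+saline over saline, 143 of 9576 genes (1.49%) were called higher and 160 (1.67%) lower, 3.16% in either direction. Of 16 interferon-stimulated genes tested, 11 were higher and 0 lower (median log2 ratio 1.49, against 0.04 for all genes), and of 7 antigen presentation genes 6 were higher and 0 lower (median 2.59). OASL (chr12:3411598-3413627), an antiviral protein of the oligoadenylate synthetase family, had 209 UMIs in clodronate+NMDA members, 79 in NMDA members, 1438 in clodronate+saline members and 2 in saline members. The log2 ratio was 8.82 (6.96, 11.87), and it was 6.08 in bipolar barcodes and 5.83 in cones. After thinning to 1500 UMIs, OASL was found in 19.8% of clodronate+saline members, against 5.63% of cones in the same library. The part of free RNA in either share was not tested. IFIT5, an interferon-induced RNA-binding protein, had 87.4 CPM in clodronate+saline members, against 2.58 CPM in saline members, and CMPK2, a mitochondrial nucleotide kinase of the same response, had 25.7 CPM in clodronate+saline members, against 0.861 CPM in saline members. TRIM25, a ubiquitin ligase of the RIG-I pathway, had 28 UMIs in clodronate+NMDA members, 17 in NMDA members, 184 in clodronate+saline members and 1 in saline members, and IFI6 had 22 UMIs in clodronate+NMDA members, 1 in NMDA members, 98 in clodronate+saline members and 0 in saline members, at least 20.5-fold higher in clodronate+saline than in saline members. The transcription factors of the response differed too, with IRF7 at 3.0 and IRF1 at 2.48.

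The antigen presentation genes named here had larger ratios in members than in bipolar barcodes. B2M, the light chain of class I molecules, had 56.2 CPM in clodronate+NMDA members, 95.2 CPM in NMDA members, 192 CPM in clodronate+saline members and 31.8 CPM in saline members. Its log2 ratio for clodronate+saline over saline was 2.59 (2.25, 2.96), against 0.91 in bipolar barcodes. BF2, a chick class I heavy chain, had 23 UMIs in clodronate+NMDA members, 20 in NMDA members, 161 in clodronate+saline members and 3 in saline members, a log2 ratio of 5.08 (3.50, 7.37) against 1.66 in bipolar barcodes. BF1, its neighbour in the class I family, gave 3.66 (2.86, 4.59) and 1.73, and since the pair are close relatives, reads may have been split between them. TAPBP and TAP1, which load peptides onto class I molecules, gave 2.80 and 2.32, against 1.67 and 1.43 in bipolar barcodes. Both lists were lower again in clodronate+NMDA than in clodronate+saline members, with 5 of 17 interferon-stimulated genes lower and 0 higher and 6 of 7 antigen presentation genes lower and 0 higher. Among all genes tested, 3.72% were lower and 3.58% higher between these libraries. B2M in that comparison gave -1.77 (-2.05, -1.51) and OASL -2.20 (-2.42, -1.99). Whether this follows from the agents or from the particular animals of a library cannot be told apart.

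**Figure D5:**
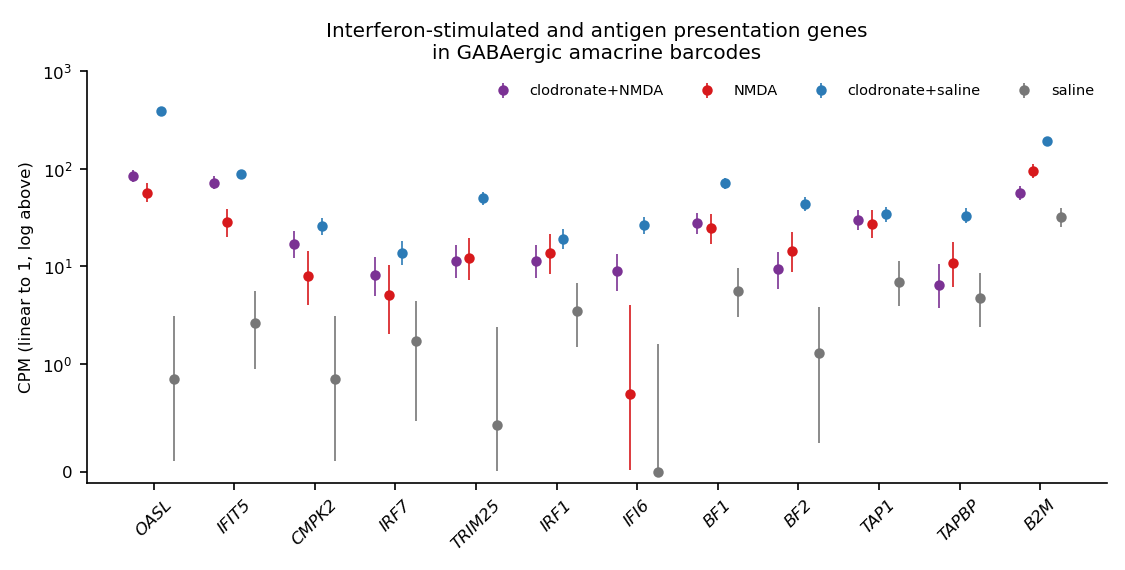
CPM (vertical axis, linear up to 1 and logarithmic above) of 12 interferon-stimulated and antigen presentation genes in GABAergic amacrine members of the clodronate+NMDA, NMDA, clodronate+saline and saline libraries, with 95% exact Poisson intervals for counting error only. Each of the 12 was highest in clodronate+saline members and lowest in saline members, where IFI6 had 0 UMIs.

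Of 134 genes called lower after clodronate alone and tested in bipolar barcodes, 45 (33.6%) were also at least 2-fold lower there, where 1.07% of all genes were, and in cones 31 of 83 (37.3%) were, where 4.14% of all genes were. GBE had 6 UMIs in clodronate+NMDA members, 43 in NMDA members, 0 in clodronate+saline members and 122 in saline members, at least 64.7-fold lower in clodronate+saline than in saline members, and bipolar barcodes gave a log2 ratio of -6.40. SAA, serum amyloid A, gave -5.08 in members and -6.11 in bipolar barcodes, and AVD, avidin, had 0 UMIs in clodronate+NMDA members, 33 in NMDA members, 0 in clodronate+saline members and 61 in saline members. WIF1, a secreted Wnt inhibitor and here a Müller glia marker, gave -4.16, and 6 of 8 Müller glia markers were lower and 0 higher. Among cotransmitters, VIP was lower at -2.03 (-2.21, -1.85) and PENK at -1.15 (-1.27, -1.02), while the shares of their carriers lay within each other's intervals. In saline members a single barcode held 269 of the 1244 PENK UMIs, and the largest VIP barcode held 127 of 888. Of 51 amacrine transcription factors and neuronal genes 0 were higher and 1 lower, and of 13 genes of GABA synthesis, packaging and uptake 0 were higher and 1 lower. The GABA list includes the rule genes GAD1 and GAD2, and its lower genes were led by SLC1A3, a Müller glia marker here. In members 1.49% of all genes were higher and 1.67% lower in this comparison. CNP3, a C-type natriuretic peptide gene, was found only in clodronate+saline members, with 59 UMIs in 6 barcodes.

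Clodronate before NMDA was compared with NMDA alone last. For clodronate+NMDA over NMDA, 102 of 8270 genes (1.23%) were called higher and 106 (1.28%) lower, 2.52% in either direction and the smallest shares of the 4 comparisons. Genes of amacrine identity were among the higher ones. GBX2, a homeobox factor known from an amacrine subset in the mouse, had 42.5 CPM in clodronate+NMDA members, 4.33 CPM in NMDA members, 40.3 CPM in clodronate+saline members and 49.9 CPM in saline members. It was found in 50 of 619 clodronate+NMDA members and 4 of 374 NMDA members, and the log2 ratio was 3.30 (2.13, 4.77). LMO3, SATB1 and TSHZ3, which regulate transcription, gave 1.59, 1.69 and 1.09, and 6 of 48 amacrine transcription factors and neuronal genes were higher and 0 lower. MEIS2, a homeobox factor that marks GABAergic amacrine cells in the mouse, had 1711 CPM in clodronate+NMDA members, against 1048 CPM in NMDA members, a log2 ratio of 0.71 (0.62, 0.79). RASL10A gave 1.04 (0.66, 1.44), with 108 CPM against 52.6 CPM. EGR1, an activity-induced transcription factor, had 141 CPM in clodronate+NMDA members, 41.1 CPM in NMDA members, 44.4 CPM in clodronate+saline members and 65.8 CPM in saline members, and its ratio of 1.78 (1.37, 2.21) compares with -0.35 in bipolar barcodes.

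Ganglion cell markers moved with these genes. Of 5 tested, 3 were higher in clodronate+NMDA than in NMDA members and 0 lower (median log2 ratio 2.11, against -0.02 for all genes). Over all genes 1.23% were called higher and 1.28% lower. POU4F2, a ganglion cell transcription factor, had 108 UMIs in clodronate+NMDA members, 0 in NMDA members, 17 in clodronate+saline members and 16 in saline members, found in 12 clodronate+NMDA members. SNCG, gamma-synuclein, had 171 CPM in clodronate+NMDA members, 39.6 CPM in NMDA members, 85.2 CPM in clodronate+saline members and 81.3 CPM in saline members, RBPMS2 gave 2.27 and NRN1, neuritin, 3.54. In bipolar barcodes SNCG gave 0.82 and RBPMS2 0.55. The ratios of these markers rested on members with more than 2500 genes, which made up 13.6% of clodronate+NMDA members, 16.3% of NMDA members, 10.5% of clodronate+saline members and 3.24% of saline members. Without them SNCG gave 0.57, RBPMS2 0.38 and NRN1 0.87 for clodronate+NMDA over NMDA, all short of 2-fold, and SATB1 gave 0.48. GBX2 kept 3.15, LMO3 1.48, TSHZ3 1.29 and EGR1 2.08. At least 2 ganglion cell marker genes were held by 17.4% of clodronate+NMDA members, 12.8% of NMDA members, 15.6% of clodronate+saline members and 9.10% of saline members, and the part of ganglion cell RNA in these ratios was not tested. SPX, the spexin peptide precursor, had 198 UMIs in clodronate+NMDA members and 0 in NMDA members, but 196 of them came from a single barcode.

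Genes lower in clodronate+NMDA than in NMDA members included markers of other cells. The reactive Müller glia markers MDK, the growth factor midkine, and FABP9 gave -2.17 and -1.19, and the rod gene PDE6G -2.16. Bipolar barcodes gave -1.63 for MDK and -1.58 for PDE6G. DUSP4, a MAP kinase phosphatase, had 52.2 CPM in clodronate+NMDA members, against 146 CPM in NMDA members, a log2 ratio of -1.49 (-1.82, -1.16). The peptides CRH, CRHBP and GCG gave -5.85, -8.26 and -2.51, each from few barcodes. Of the genes higher after NMDA in both settings, GADD45B gave -0.32, HMGCS1 0.19 and ASNS -0.14 here, and CREB5 0.70, MYC 0.78, PHGDH 0.66 and SOX11 -0.69, none of them past 2-fold. The clodronate comparisons without and with NMDA share no library. Among genes tested in both, 12 were higher in both, 16.4% of 73 and 13.0% of 92. Another 23 were lower in both, 24.2% of 95 and 24.5% of 94. Over all genes tested in each comparison, 1.49% and 1.23% were called higher and 1.67% and 1.28% lower. The Pearson r across genes was 0.16.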

How the data were processed

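Retinas were dissociated with papain and single cells were captured with 10X Genomics 3' kits, 1 library per condition. The deposited matrices hold counts, which the authors made with Cell Ranger 7.0.1 on the GRCg7b build per the labels: whole UMI counts per gene and barcode, not normalised. UMIs were summed by gene symbol over 30108 gene identifiers (29839 symbols).

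Members were called by the rule given with the results, and their UMIs were summed per library and divided by the sum over all genes (CPM). A log2 ratio of CPM came with an exact conditional binomial interval, a CPM with an exact Poisson interval and a share with a Clopper-Pearson interval, all at 95% and for counting error only. Genes needed at least 50 UMIs over both libraries of a comparison, and 2-fold was the limit of a call. A fold against a library at 0 UMIs was computed against 3 counts in that library. With 1 library per condition no test between conditions was possible. Alternatives were TMM scaling (edgeR 4.0.16), median of ratios scaling, a total without mitochondrial, hemoglobin and ribosomal genes, a mean over members, other limits on GAD, genes, mitochondrial and summed UMIs, and leaving out barcodes with markers of other types. The scripts were tested on simulated data. Python 3.11.15 with numpy 2.4.6 and scipy 1.17.1 was used, and RefSeq positions were matched by symbol.

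The members and gene lists were chosen with earlier results of these data known, and the lists of cholesterol synthesis and of serine, proline and amino acid response genes after their values had been seen. Named genes were the rule genes, up to 4 genes per list and direction, the 10 highest and 10 lowest genes of a comparison by the interval bound nearest 0, the 20 genes that best set members apart, and cotransmitter genes found in at least 1% of members of a library. A few genes outside this rule were named for their role, with their values seen. Results of a few genes are not reported here.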

Additional observations from a re-analysis of the deposited data

Results flagged for a closer look

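The ratios of 8 named genes pointed in opposite directions, each by at least 2-fold and with an interval that left out 0, when the same agent was compared in the 2 settings. The differences between the settings were not tested, since each condition was a single library.

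For NMDA, with the value without clodronate (NMDA over saline) first and the value with clodronate (clodronate+NMDA over clodronate+saline) after it, the log2 ratios were 6.05 and -2.20 for OASL, 1.58 and -1.77 for B2M, 2.31 and -1.15 for NMB, 1.24 and -1.57 for TAFA4, -2.18 and 1.25 for NRN1, -1.04 and 1.01 for SNCG, and -5.83 and 5.24 for TH. For clodronate, with the value without NMDA (clodronate+saline over saline) first and the value with NMDA (clodronate+NMDA over NMDA) after it, they were 2.40 and -2.51 for GCG, 1.26 and -2.20 for NMB, and -4.07 and 6.99 for TH.

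The number of barcodes behind them differed. OASL was found in 26 clodronate+NMDA members, 16 NMDA members, 256 clodronate+saline members and 2 saline members. B2M was found in 92, 76, 302 and 58 members in the same order, and SNCG in 130, 50, 191 and 129. NMB, the neuromedin B precursor, had 31 UMIs in clodronate+NMDA members, 80 in NMDA members, 103 in clodronate+saline members and 27 in saline members, and TAFA4, a secreted chemokine-like protein, had 20 UMIs in clodronate+NMDA members, 62 in NMDA members, 89 in clodronate+saline members and 44 in saline members. TH was found in 3, 1, 6 and 7 members and GCG in 4, 6, 15 and 5, so single barcodes set their ratios. With at most 2500 genes per barcode, NRN1 gave -0.70 and TH -0.31 for clodronate+NMDA over clodronate+saline. Their positive values with clodronate did not hold under that limit.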

How the results depend on the processing

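No paired analysis was possible because each condition was a single library. For the same reason no library could be left out. The shares of members in the clodronate+NMDA, NMDA, clodronate+saline and saline libraries were 4.04%, 2.28%, 6.25% and 5.57% at 1000 UMIs per barcode, 5.53%, 2.56%, 7.08% and 5.41% with at least 4 GAD UMIs, and 7.83%, 3.52%, 8.82% and 7.48% with no limit on mitochondrial UMIs. The NMDA library kept the lowest share under all 3. With at least 200 UMIs over both libraries, the genes called higher and lower numbered 108 and 129 for NMDA over saline, 145 and 118 for clodronate+NMDA over clodronate+saline, 26 and 43 for clodronate+saline over saline, and 19 and 14 for clodronate+NMDA over NMDA. With at least 1 UMI they numbered 2794 and 3307, 2951 and 3417, 3070 and 2132, and 3367 and 2137, in the same order. TMM scaling gave 273 higher and 443 lower genes for NMDA over saline and median of ratios scaling 288 and 434, against 353 and 360. No scaling moved the median of all genes by more than 0.1.

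Of 9872 values of named genes under the alternatives, 9136 stayed within the counting interval of the reported value, 725 left it without reversing a 2-fold difference, and 11 reversed a 2-fold difference. With at most 2500 genes per barcode, VAMP2 gave -1.16 for NMDA over saline and 1.49 for clodronate+NMDA over NMDA, EBF1 -0.75 for clodronate+NMDA over NMDA, and NRN1 -0.70, POU4F2 -0.90, SPX -1.48 and TH -0.31 for clodronate+NMDA over clodronate+saline. Without barcodes with markers of at least 2 other types, CRH gave -0.96 for NMDA over saline, and SPX -1.62 and TH -0.034 for clodronate+NMDA over clodronate+saline. With at least 4 GAD UMIs, GCG gave -0.68 for clodronate+saline over saline. The cause was not tested. Leaving out barcodes with markers of other types brought the shares of members to 7.65%, 2.61%, 8.36% and 5.79%.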

Other observations

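Of 30 voltage-gated channel genes tested, 1 was higher and 2 were lower in NMDA than in saline members, and of 33 tested 0 were higher and 2 lower in clodronate+NMDA than in clodronate+saline members. These shares were near those over all genes, 8.7% and 7.3% in either direction. Nuclear genes of oxidative phosphorylation stayed within 2-fold in all 4 comparisons, 24 of 24 each time, with medians of -0.04 for NMDA over saline and 0.06 for clodronate+NMDA over clodronate+saline. The 31 ribosomal protein genes all lay above 0 for NMDA over saline, with a median log2 ratio of 0.32, and had a median of 0.67 for clodronate+NMDA over clodronate+saline, where 2 passed 2-fold. For clodronate+saline over saline their median was -0.22.

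The metallothionein gene MT3, whose product binds zinc and copper, had 443 CPM in NMDA members, against 217 CPM in saline members, and 706 CPM in clodronate+NMDA members, against 302 CPM in clodronate+saline members, and MT4 gave 1.88 and 0.56. In bipolar barcodes MT3 gave 2.41 and 1.14, above the ratio in members for NMDA over saline and below that for clodronate+NMDA over clodronate+saline. Adhesion and lamina choice genes, the largest list, had 8 of 65 lower and 1 higher in NMDA than in saline members (median -0.45), and 4 of 67 lower and 1 higher in clodronate+NMDA than in clodronate+saline members (median -0.35), beside 4.39% and 3.72% lower over all genes.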
